A study of Homo sapiens with 6 samples.

Results

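The 10 genes described here encode actins and actin-bound proteins of the contractile apparatus: ACTA1, ACTA2, ACTG2, TAGLN, CNN1, MYL9, TPM1, TPM2, MYH11 and CALD1. They were chosen by symbol, and the comparison centres on ACTA1 and TAGLN because both were already known to be higher in these arrays with SDC1 siRNA. All 10 were measured, by 40 probe sets with exactly 1 gene symbol, among 19775 genes and 54613 probe sets in all. RNA was taken from Caco-2, an established line of human colorectal adenocarcinoma cells that can form a polarised sheet resembling intestinal epithelium. Of the 6 Affymetrix arrays, 3 held RNA of cells given siRNA against SDC1, the gene of the cell-surface heparan sulfate proteoglycan syndecan-1, and 3 held RNA of cells given a negative control siRNA. The siRNA sequences and the time between transfection and harvest were not found in the labels. The replicates are called independent, without saying whether each was a culture of its own, so the p-values reflect the spread of these 6 arrays and that spread may be technical.

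Smooth muscle cells contract by sliding myosin along actin filaments. Much of this machinery is switched on by serum response factor (SRF), a transcription factor that binds CArG boxes near the start of its target genes. SRF works with myocardin in muscle and with the myocardin-related factors MRTFA and MRTFB in many cells, and the related factors respond to the amount of unpolymerised actin. Epithelial cells rely mainly on non-muscle actins and myosins. The question was whether ACTA1 and TAGLN were higher together with the other contractile genes.

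The promoters of the 3 muscle-type actins in this set are shown side by side here. ACTA1 and ACTG2 had the largest gene differences of the set, and ACTA2 is their close relative. Each sequence is the 250 bases before a RefSeq transcription start in build GRCh38.p14, 5′ to 3′ on the gene's own strand, and capitals mark exact matches to the CArG box consensus (CC, then 6 bases that are A or T, then GG).
ACTA1: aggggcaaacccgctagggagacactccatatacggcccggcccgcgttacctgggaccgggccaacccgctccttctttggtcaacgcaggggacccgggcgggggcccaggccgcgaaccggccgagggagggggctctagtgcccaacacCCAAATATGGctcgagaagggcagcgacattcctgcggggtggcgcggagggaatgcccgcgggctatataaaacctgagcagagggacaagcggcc
ACTG2: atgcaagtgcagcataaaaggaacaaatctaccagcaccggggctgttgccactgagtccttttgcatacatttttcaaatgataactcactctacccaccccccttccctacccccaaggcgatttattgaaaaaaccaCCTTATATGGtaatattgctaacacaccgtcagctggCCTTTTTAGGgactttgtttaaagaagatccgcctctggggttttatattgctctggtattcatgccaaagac
ACTA2: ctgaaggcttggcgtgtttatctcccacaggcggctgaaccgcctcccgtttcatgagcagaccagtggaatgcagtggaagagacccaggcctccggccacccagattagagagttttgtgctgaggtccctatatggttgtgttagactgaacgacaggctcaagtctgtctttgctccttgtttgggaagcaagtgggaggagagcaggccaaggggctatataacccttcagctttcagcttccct

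The ACTA1 stretch lies at chr1:229434095-229434344 on the minus strand, the ACTG2 stretch at chr2:73892758-73893007 on the plus strand and the ACTA2 stretch, before a start inside the annotated gene, at chr10:88952774-88953023 on the minus strand. ACTA1 had 1 match, beginning 97 bases upstream of the start, and ACTG2 had 2, beginning 110 and 73 bases upstream. The consensus reads the same on both strands, so 1 search covered both. Promoter windows of 300 bases, reaching 50 bases past the start, were found for 7 of the 10 genes (12 windows). No window was found for TAGLN, MYL9 or MYH11, so their promoters were not searched. Of the 12 windows, 2 held a match, against 454 of all 35116 windows (1.29%). The 10 windows with no match, among them both windows of ACTA2, lack these exact letters. Stretches that differ from the consensus by 1 base were not marked, such as ccctatatgg in the ACTA2 sequence shown and ccatatacgg in that of ACTA1. A match is a description of the letters, and SRF binding was not measured here.

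The values are log2 signals relative to the median of each probe set over the 6 arrays. They show how far an array lay above or below that median, not how abundant a transcript was, and they cannot rank genes by level. A rough brightness could still be read from the rounding steps of the numbers, which differ between signals of 8 to 16, of 4 to 8 and below 4 on the log2 scale. By that reading 7 of the 10 genes had a probe set at 8 to 16 (ACTA1, ACTG2, TAGLN, MYL9, TPM1, TPM2 and CALD1) and the other 3 reached 4 to 8. Of all 19775 genes, 6460 had a probe set at 8 to 16. Each gene's value is the mean of its probe sets in its brightest class. A median of 6 values lies midway between the middle pair. For a single probe set those 2 arrays thus sit at equal distances on either side of 0. The mean of several probe sets need not keep this.

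The target of the siRNA was lower in every SDC1 siRNA array. SDC1 stood at -0.50, -0.62 and -0.34 with SDC1 siRNA, against 0.37, 0.35 and 0.35 with control siRNA, a difference of -0.84 ± 0.08 (log2, standard error; limma adjusted p = 0.0246 over all genes). With any 1 array left out the difference was between -0.92 and -0.78, and the adjusted p lay between 0.0652 and 0.334. Of 13 markers of intestinal epithelium, 8 had a probe set at 8 to 16 (KRT8, CLDN7 and CDX2 among them), 4 reached 4 to 8 and 1 lay below 4. Of all 19775 genes, 6460 had a probe set at 8 to 16, as did 2 of 5 endothelial markers. Between any 2 arrays the median absolute difference over all genes was 0.09 to 0.15, and each of the 5 pairs that held control replicate 2 was above 0.12. In RNA from whole cultures, a change in how many cells make a transcript and a change in how much each cell makes cannot be told apart.

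ACTA1 and TAGLN were higher beside some contractile genes and not others. A difference above 0 was seen for 8 of the 10 genes, and the median over the 10 was 0.13, beside 52% of all genes above 0 and a median of 0.01 over all genes. The 3 SDC1 siRNA arrays lay wholly above the 3 control arrays for ACTA1, TAGLN, ACTG2 and MYH11, wholly below them for TPM1, and overlapped them for the other 5. Groups did not overlap for 16.7% of all genes, 8.21% in the higher and 8.45% in the lower direction. The limma test with Benjamini-Hochberg adjustment over all 19775 genes called 0 of the 10 genes at 0.05, where 0.0253% of all genes were called, and 4 of the 10 were at an unadjusted p under 0.05, where 10.5% of all genes were. Because ACTA1 and TAGLN were picked for this same difference, these counts only describe the list. Without those 2 genes the remaining 8 had a median difference of 0.09, with 6 above 0 and 2 below. Of these 8, 3 had separate groups (2 higher and 1 lower), and 2 were at an unadjusted p under 0.05 (limma).

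**Figure D1:**
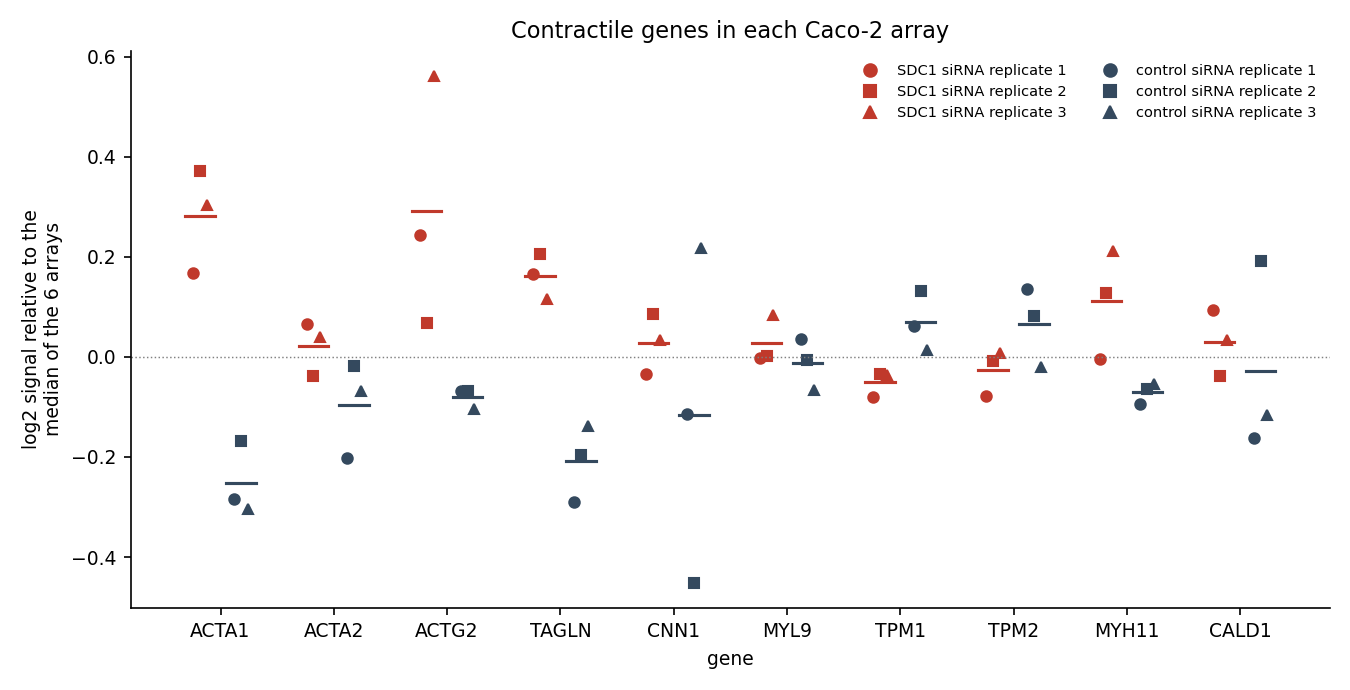
Log2 signal relative to the median of the 6 arrays (vertical axis) for the 10 contractile genes (horizontal axis), with each point 1 array, red for SDC1 siRNA and dark for control siRNA, and short lines for group means. ACTA1 and TAGLN separate the groups with a clear gap, ACTG2 and MYH11 with unequal SDC1 siRNA arrays, TPM1 the other way, and the other 5 genes overlap.

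The muscle actins form the thin filaments. ACTA1, the actin of skeletal muscle, lies at chr1:229431245-229434094 (GRCh38.p14) and was measured by 1 bright probe set, 203872_at. Its relative log2 signal was 0.17, 0.37 and 0.30 in SDC1 siRNA replicates 1, 2 and 3, against -0.28, -0.17 and -0.30 in control replicates 1, 2 and 3. Every SDC1 siRNA array stood above every control array. The means were 0.28 ± 0.10 with SDC1 siRNA and -0.25 ± 0.07 with control siRNA (SD, n = 3 each), a difference of 0.53 ± 0.08 (log2, standard error), or 1.45-fold. No p is given for ACTA1 or TAGLN, which were chosen for this difference. Leaving out any 1 array kept ACTA1 between 0.49 and 0.59.

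ACTG2, the gamma actin of enteric smooth muscle, had the same direction with a wider spread. Its bright probe set 202274_at was at 0.24, 0.07 and 0.56 with SDC1 siRNA, against -0.07, -0.07 and -0.10 with control siRNA. The control arrays lay close together, and SDC1 siRNA replicate 3 stood well above the other two. The difference was 0.37 ± 0.12 (adjusted p = 0.327, limma), with means of 0.29 ± 0.25 with SDC1 siRNA and -0.08 ± 0.02 with control siRNA (SD, n = 3 each). Without SDC1 siRNA replicate 3 it was 0.24, and with the mean of both ACTG2 probe sets it was 0.21. A dimmer ACTG2 probe set, 241148_at, was at 0.06 ± 0.10.

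ACTA2, the alpha actin of vascular smooth muscle and myofibroblasts, gave different values by probe set. Probe set 200974_at was at 0.06, 0.10 and 0.18 with SDC1 siRNA, against -0.39, -0.06 and -0.23 with control siRNA. Its groups did not overlap, and its difference was 0.34 ± 0.10 (adjusted p = 0.475 over all 54613 probe sets, limma). Probe set 215787_at, in the same brightness class of 4 to 8, was at -0.10 ± 0.09, and the dim 243140_at at -0.01 ± 0.09. The gene's value, the mean of the first 2, was 0.12 ± 0.08 (adjusted p = 0.632) and its groups overlapped. It was 0.07 without control replicate 1 and 0.08 as the average of its 3 probe sets.

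Each of these 3 actins thus had 1 probe set with separate groups, where 14.5% of all probe sets had them, although the arrays that led differed. ACTA1 was highest in SDC1 siRNA replicate 2, where ACTG2 was lowest of its group. ACTA1 minus ACTG2 was -0.08, 0.30 and -0.26 with SDC1 siRNA, against -0.22, -0.10 and -0.20 with control siRNA, and these overlapped. ACTA1 minus the ACTA2 gene value was 0.10, 0.41 and 0.26 with SDC1 siRNA, against -0.08, -0.15 and -0.24 with control siRNA, with no overlap. ACTC1, the cardiac muscle actin, is outside this set and was at -0.12 ± 0.09 with overlapping groups. The muscle actins are closely related proteins, and whether these probe sets pick up each other's transcripts was not tested.

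**Figure D2:**
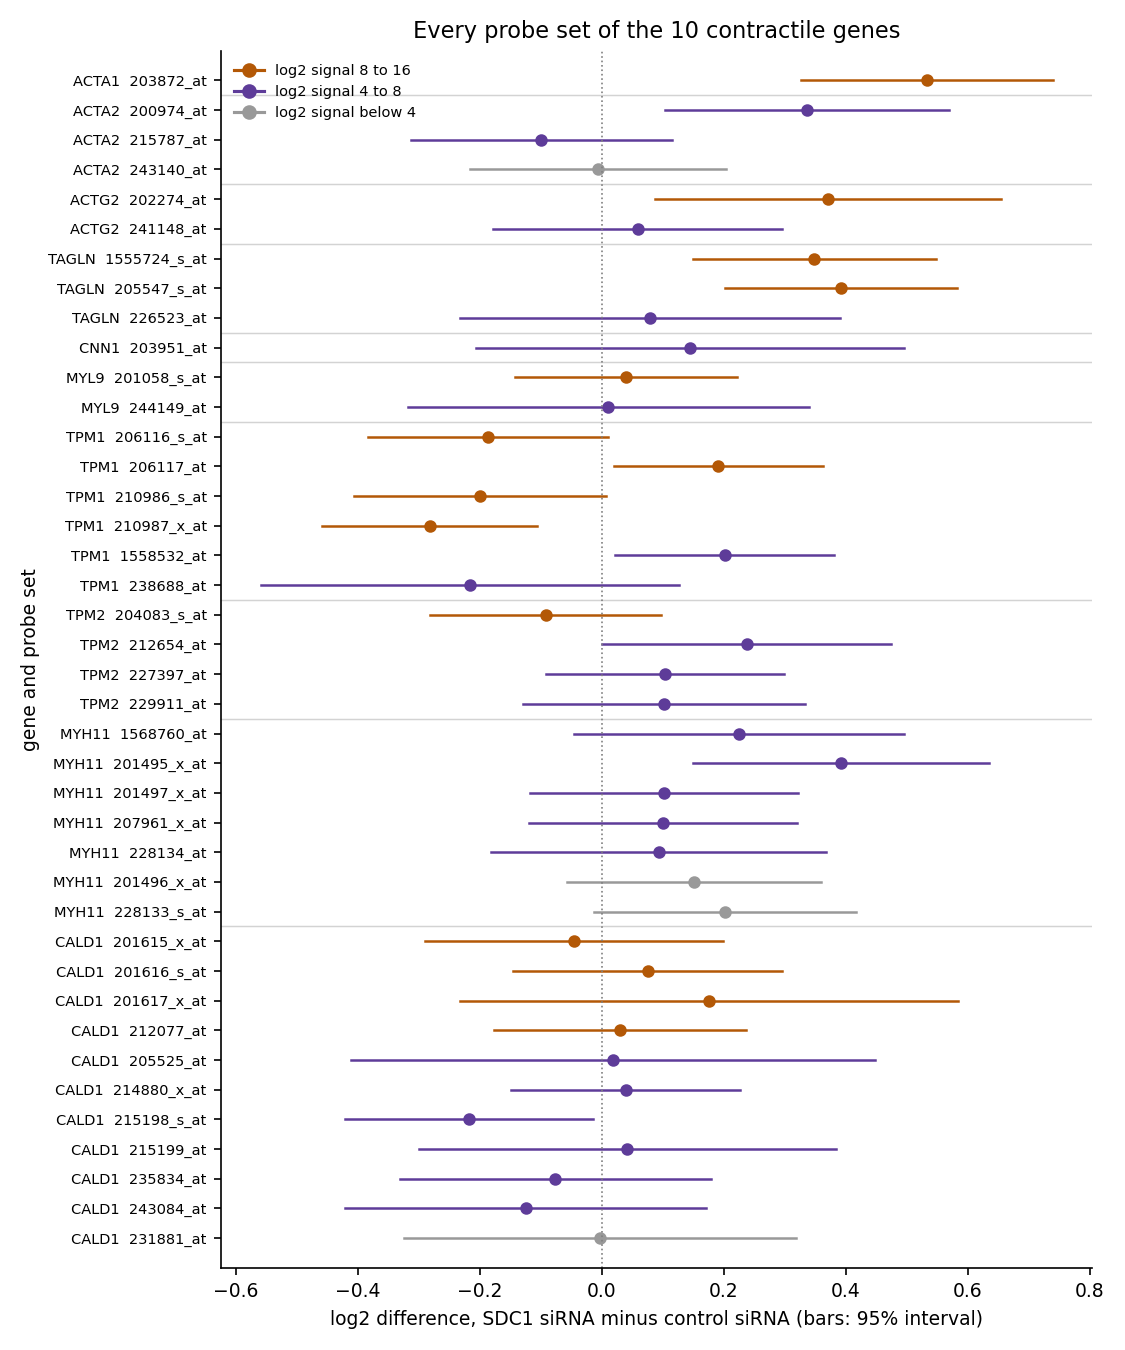
Log2 difference, SDC1 siRNA minus control siRNA (horizontal axis), for each of the 40 probe sets of the 10 genes (vertical axis); points are estimates, bars are 95% intervals of the limma fit over all probe sets, and colours give the brightness class. ACTA1, the bright ACTG2 and TAGLN probe sets, 1 ACTA2 and 1 MYH11 probe set lie between 0.34 and 0.53, while the TPM1 probe sets fall on both sides of 0.

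The next group binds to the thin filament. TAGLN encodes transgelin (SM22), an actin-bundling protein and a widely used marker of early smooth muscle, at chr11:117199294-117207465. Its 2 bright probe sets gave similar values. Probe set 205547_s_at was at 0.17, 0.25 and 0.14 with SDC1 siRNA, against -0.28, -0.14 and -0.19 with control siRNA. Probe set 1555724_s_at was at 0.16, 0.16 and 0.09 with SDC1 siRNA, against -0.30, -0.25 and -0.09 with control siRNA. Averaged, TAGLN was at 0.16 ± 0.04 with SDC1 siRNA and -0.21 ± 0.08 with control siRNA (SD, n = 3 each), a difference of 0.37 ± 0.07, or 1.29-fold. The groups did not overlap for either probe set. Both carry the suffix _s_at, which Affymetrix gave to probe sets that can match more than 1 transcript. The third, 226523_at, which lacks that suffix and is dimmer, was at 0.08 ± 0.14 with overlapping groups, and the mean of all 3 was 0.27.

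CNN1 encodes calponin 1, a thin-filament protein of differentiated smooth muscle that slows myosin's ATPase. It was at -0.03, 0.09 and 0.03 with SDC1 siRNA, against -0.11, -0.45 and 0.22 with control siRNA. The control arrays spanned more than the SDC1 siRNA arrays did, and the groups overlapped (0.14 ± 0.15, adjusted p = 0.787). Without control replicate 2 the difference was -0.02, and without control replicate 3 it was 0.31. CALD1 encodes caldesmon, which ties actin to myosin and tropomyosin, and is made as a heavy form in smooth muscle and a light form in other cells. It was measured by 11 probe sets, of which 6 were above 0 and 5 below. The mean of the 4 bright ones was 0.09, -0.04 and 0.03 with SDC1 siRNA, against -0.16, 0.19 and -0.12 with control siRNA. The groups overlapped (0.06 ± 0.10, adjusted p = 0.886), and the difference was 0.17 without control replicate 2 and -0.0080 without control replicate 1. Over the 11 probe sets the differences ran from -0.22 to 0.18. The lowest, 215198_s_at, was at -0.21, -0.02 and -0.17 with SDC1 siRNA, against 0.02, 0.16 and 0.07 with control siRNA, and was the only CALD1 probe set whose groups did not overlap. The light and heavy forms could not be assigned to probe sets.

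Tropomyosins lie along the actin filament and govern which proteins reach it. The TPM1 probe sets disagreed. Of its 4 bright probe sets, 206117_at was at 0.09, 0.10 and 0.09 with SDC1 siRNA, against -0.09, -0.09 and -0.11 with control siRNA. Probe set 210987_x_at was at -0.18, -0.11 and -0.13 with SDC1 siRNA, against 0.15, 0.17 and 0.11 with control siRNA. Each of the 2 separated the groups, in opposite directions, with differences of 0.19 ± 0.08 (adjusted p = 0.561) and -0.28 ± 0.08 (adjusted p = 0.438; limma over all probe sets). The other bright ones, 206116_s_at and 210986_s_at, were at -0.19 ± 0.09 and -0.20 ± 0.09, both with separate groups. Among the dimmer ones, 1558532_at was at 0.20 ± 0.08 with separate groups and 238688_at at -0.22 ± 0.15 with overlapping groups.

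The gap between 206117_at and the mean of the other 3 bright TPM1 probe sets was taken for each array, a contrast chosen after the values were seen. It was 0.23, 0.18 and 0.16 with SDC1 siRNA, against -0.20, -0.30 and -0.17 with control siRNA, a difference of 0.41. The gap does not say which transcript differed. TPM1 is transcribed as many isoforms with different first and last exons, and the files do not say which isoforms each probe set matches. The gene value of -0.12 ± 0.07 (adjusted p = 0.581) averages probe sets of both directions. Without _x_at and _s_at probe sets it was 0.19.

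**Figure D3:**
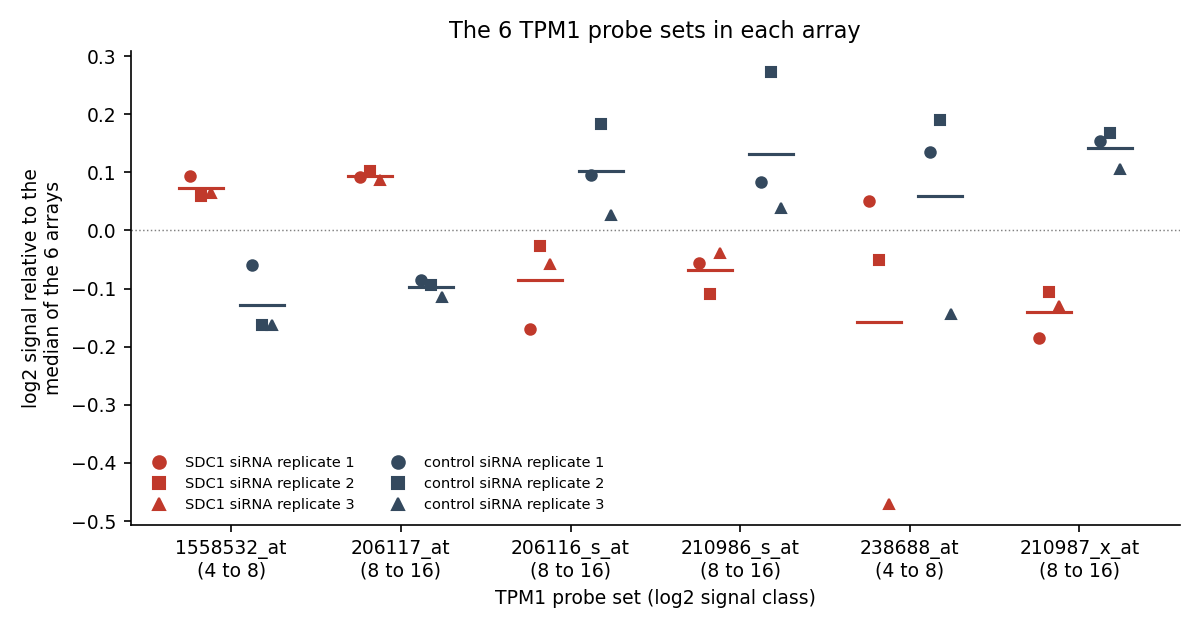
Log2 signal relative to the median of the 6 arrays (vertical axis) for the 6 TPM1 probe sets, with brightness class in brackets (horizontal axis); points are arrays, red for SDC1 siRNA and dark for control siRNA, and lines are group means. Probe sets 1558532_at and 206117_at are higher with SDC1 siRNA in every array, and 206116_s_at, 210986_s_at and 210987_x_at are lower in every array.

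TPM2, the beta tropomyosin of muscle, was at -0.08, -0.01 and 0.01 with SDC1 siRNA, against 0.14, 0.08 and -0.02 with control siRNA, by its bright probe set 204083_s_at. The groups overlapped (-0.09 ± 0.07, adjusted p = 0.703), and the difference was -0.06 without control replicate 1. Its 3 dimmer probe sets lay on the other side of 0, from 0.10 to 0.24, so the mean of all 4 was 0.09. The highest of them, 212654_at, was at 0.02, 0.37 and 0.14 with SDC1 siRNA, against -0.10, -0.06 and -0.02 with control siRNA, with separate groups.

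Myosin is the motor that pulls on these filaments. MYH11, the smooth muscle myosin heavy chain and a marker of differentiated smooth muscle, had 7 probe sets, all above 0, of which 5 were at 4 to 8 and 2 below 4. The gene value was -0.0039, 0.13 and 0.21 with SDC1 siRNA, against -0.09, -0.06 and -0.05 with control siRNA. Every SDC1 siRNA array lay above every control array, replicate 1 by the least. The difference was 0.18 ± 0.08, or 1.13-fold (adjusted p = 0.458, limma). One of the 7, 201495_x_at, was at 0.09, 0.22 and 0.43 with SDC1 siRNA, against -0.09, -0.24 and -0.09 with control siRNA (0.39 ± 0.11), and the other 6 were between 0.09 and 0.23, with separate groups in 228133_s_at alone. Of the 7, 5 carry the suffix _s_at or _x_at. MYL9, the regulatory light chain that is phosphorylated when smooth muscle and non-muscle cells contract, did not separate the groups. It was at -0.0016, 0.0016 and 0.08 with SDC1 siRNA, against 0.04, -0.0054 and -0.07 with control siRNA. Its difference was 0.04 ± 0.07 with a 95% interval from -0.12 to 0.20 (adjusted p = 0.884). Leaving out 1 array put it between 0.01 and 0.06, at 0.01 without SDC1 siRNA replicate 3 or control replicate 3 and at 0.06 without control replicate 1.

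Over the probe sets, 28 of the 40 were above 0 and 12 were not, where 50.2% of all probe sets were above 0, with a median of 0.08 beside 0.0005 over all 54613. The groups did not overlap for 10 in the higher direction, where 7.06% of all probe sets were so placed, and for 4 in the lower direction, where the share was 7.42%. These 4 were 3 of TPM1 and 1 of CALD1. ACTA1 gave 1 and TAGLN 3 of the 28 above 0, and ACTA1 gave 1 and TAGLN 2 of the 10. Tested singly with limma, 0 of the 40 and 0 of all 54613 probe sets passed an adjusted p of 0.05, with 11 of the 40 at an unadjusted p under 0.05 and 8.33% of all. Because ACTA1 and TAGLN were picked for their difference in these arrays, all these counts only describe the list.

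The distance of ACTA1 and TAGLN from the rest was also taken array by array. The median of the other 8 genes was -0.0027, -0.0034 and 0.04 with SDC1 siRNA, against -0.08, -0.01 and -0.06 with control siRNA. ACTA1 minus that median was 0.17, 0.38 and 0.27 with SDC1 siRNA, against -0.20, -0.16 and -0.24 with control siRNA. TAGLN minus it was 0.17, 0.21 and 0.08 with SDC1 siRNA, against -0.21, -0.18 and -0.08 with control siRNA. These gaps are descriptions, since ACTA1 and TAGLN were chosen for their difference between the same arrays. The median of the other 8 genes differed by 0.06, beside 0.53 for ACTA1 and 0.37 for TAGLN. ACTG2 was the only other member with a gene difference as large as that of TAGLN.

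Likeness of pattern was measured as the root mean square difference of the relative log2 signals over the 6 arrays. TAGLN ranked 54 among the other 19774 genes by its distance to ACTA1 (0.12), and ACTA1 ranked 611 by its distance to TAGLN. Of the other members, MYH11 ranked 506 and ACTG2 1146 by distance to ACTA1, while TPM1, at 14748, was the farthest. By distance to TAGLN, MYH11 ranked 929 and TPM1, at 14838, was again the farthest. ACTG2 ranked 10323 there, behind MYL9 at 5933 and CALD1 at 7160. The 3 genes nearest to ACTA1 were RGCC, a regulator of the cell cycle (0.0493), PXYLP1, a phosphatase that acts on the xylose of proteoglycan linkers (0.0713), and NPPB, which encodes the B-type natriuretic peptide (0.0739). Those nearest to TAGLN were the ubiquitin ligase TRIM2 (0.0384), the COPII coat protein SEC24B (0.0549) and the membrane protein TMEM121 (0.0565). ACTA1 and TAGLN were both chosen for their pattern across the groups of these same arrays. Their nearness to each other follows from that choice and is no test of it. The genes nearest to either share that pattern by construction.

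Genes around the contractile set were taken as lists, chosen with earlier results known. Of their members 0 passed an adjusted p of 0.05 over all genes (limma), where 0.0253% of all genes did. Between 0 and 6 of a list were at an unadjusted p under 0.05, where 10.5% of all genes were. Of 7 SRF factors, 4 were above 0, with SRF itself at 0.04 and MYOCD, myocardin, at 0.04 from 2 probe sets below 4, both with overlapping groups. ELK3, a ternary complex factor, was at 0.21 ± 0.09 (adjusted p = 0.454), the cofactor MRTFB at -0.11 ± 0.07 and its relative MRTFA at 0.08 ± 0.07. Each of these 3 had separate groups, MRTFB lower and the other 2 higher, where 16.7% of all genes had separate groups. The gaps were narrow. The nearest SDC1 siRNA and control arrays were at 0.00089 and -0.00089 for ELK3, -0.0070 and 0.0070 for MRTFB, and 0.017 and 0.0040 for MRTFA. MRTFB was at -0.06 without control replicate 2 and at -0.02 with the mean of all its probe sets, and MRTFA was at 0.05 without SDC1 siRNA replicate 2.

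Most non-muscle genes of the actin cytoskeleton were above 0, by small amounts. Of 19 measured genes (22 listed), 18 were above 0, with a median of 0.10, and 10 had groups that did not overlap (9 higher and 1 lower), where 16.7% of all genes did. ZYX, zyxin of focal adhesions, was at 0.06, 0.10 and 0.08 with SDC1 siRNA, against -0.12, -0.14 and -0.11 with control siRNA (0.20 ± 0.06, adjusted p = 0.327). MYL12A, a non-muscle regulatory light chain, was at 0.30 ± 0.10 and was -0.09 with the mean of all its probe sets, and the non-muscle myosin MYH14 was at 0.16 ± 0.08, or 0.10 without _x_at and _s_at probe sets. ACTB, the cytoplasmic beta actin, was at 0.11 ± 0.06 with separate groups. MYH10, another non-muscle myosin heavy chain, was the 1 gene below 0, at -0.12.

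Immediate early targets of SRF, which respond to serum, many of them through the ternary complex factors, were mostly below 0. Of 8 measured genes, 1 was above 0 (median of the list -0.15), where 52% of all genes were. Separate groups were seen for 0 of the 8, where 16.7% of all genes had them, so that 0 says little. EGR1 was at -0.88, -0.20 and 0.13 with SDC1 siRNA, against -0.13, 0.41 and 0.39 with control siRNA (-0.54 ± 0.25, adjusted p = 0.495), and at -0.25 without SDC1 siRNA replicate 1. FOS was at -0.37 ± 0.15, at -0.23 without that array and at -0.24 without control replicate 3, and CCN1, a matricellular protein also known as CYR61, was at -0.30 ± 0.12. The medians of the contractile set and of the immediate early targets lay on opposite sides of 0, and the difference between the lists was not tested.

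**Figure D4:**
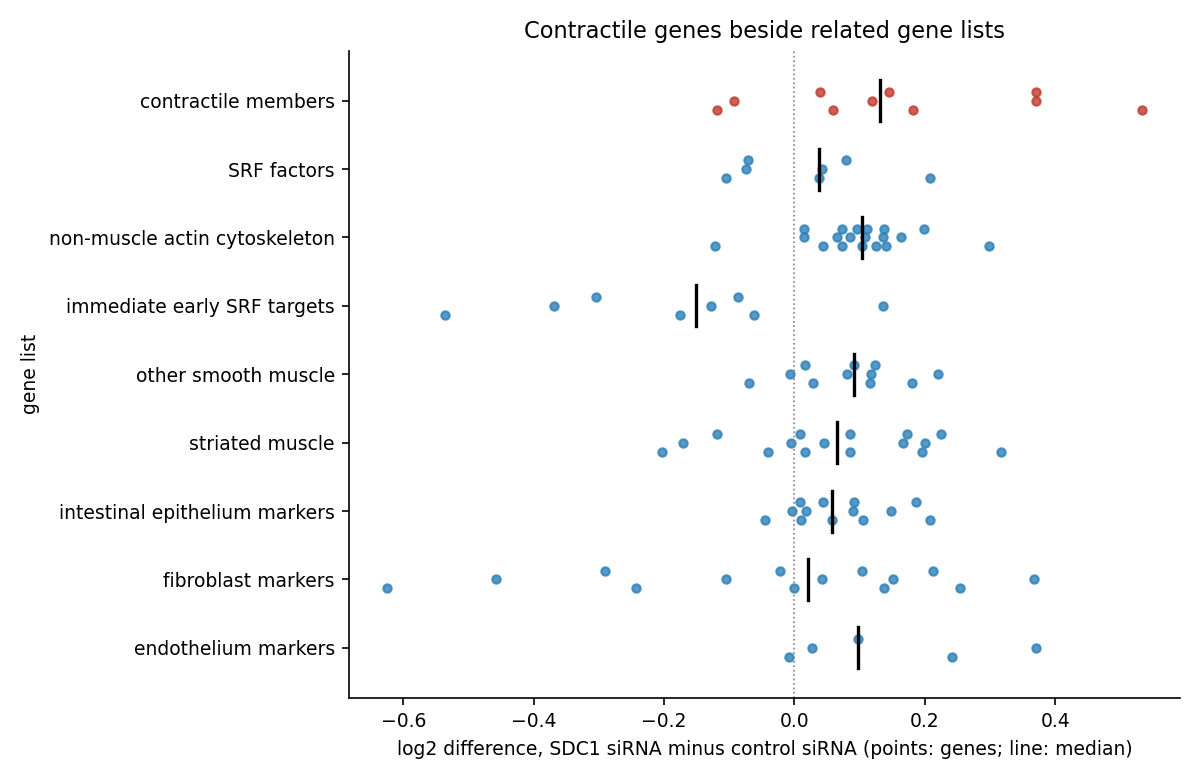
Log2 difference, SDC1 siRNA minus control siRNA (horizontal axis), for each gene of the contractile set (red) and of 8 related lists (blue), with a black line at each list's median. The contractile genes range from -0.12 to 0.53 with a median of 0.13, non-muscle cytoskeletal genes gather near 0.10 and the immediate early targets lie mostly below 0.

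The lists of other muscle genes had medians a little above 0. Of 11 further smooth muscle genes, 9 were above 0 with a median of 0.09, and 0 had separate groups. Of all genes, 52% were above 0 and 16.7% had separate groups, so a 0 in so short a list says little. CSRP1, a LIM protein of smooth muscle, was at 0.18 ± 0.08 (adjusted p = 0.487), the actin-binding synaptopodin 2 (SYNPO2) at 0.09 ± 0.07 and desmin (DES), a muscle intermediate filament, at 0.22 ± 0.12. SYNPO2 was at 0.01 with the mean of all its probe sets and 0.04 without control replicate 1. DES was at 0.07 without control replicate 2, at 0.07 with the mean of all its probe sets and at -0.08 without _x_at and _s_at probe sets. Of 16 striated muscle genes, 11 were above 0 with a median of 0.07, and 3 had separate groups (2 higher and 1 lower). MYL7, the atrial light chain, was at 0.32 ± 0.07 (adjusted p = 0.206), cardiac troponin C (TNNC1) at -0.20 ± 0.07 and the ventricular light chain MYL3 at 0.17 ± 0.08. The groups of MYL7 (higher) and TNNC1 (lower) were separate, and those of MYL3 overlapped.

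Markers of other cell types that make contractile genes were read beside these values. Of 14 fibroblast markers, 7 were above 0 (median of the list 0.02), and 7 had separate groups (4 higher and 3 lower), where 16.7% of all genes did. The collagen chain COL1A2 was at 0.37 ± 0.07, vimentin (VIM) at -0.46 ± 0.08 and lumican (LUM) at -0.62 ± 0.17. Without _x_at and _s_at probe sets COL1A2 was at 0.12 and LUM at 0.04, and averaging every probe set of a gene gave -0.28 for VIM and -0.29 for LUM. Of 5 endothelial markers, 4 were above 0 and 2 had separate groups, both higher, with CDH5 at 0.37 ± 0.12, VWF at 0.24 ± 0.09 and PECAM1 at 0.10 ± 0.09. CDH5 was at 0.24 without control replicate 1, where PECAM1 was at 0.16. Without control replicate 2, VWF was at 0.16 and PECAM1 at 0.02, and VWF was at 0.12 with the mean of all its probe sets. Epithelial markers had a median of 0.06, with 11 of 13 above 0 and 1 with separate groups (KRT8, higher), among them villin (VIL1) at 0.19 ± 0.09, CLDN7 at 0.15 ± 0.09 and KRT8 at 0.09 ± 0.07. Without control replicate 2, VIL1 was at 0.11 and CLDN7 at 0.08. CLDN7 was at 0.23 without control replicate 3, and VIL1 at 0.07 with the mean of all its probe sets. Their part in the contractile values was not tested, and the centred values cannot show which markers are absent.

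**Figure D5:**
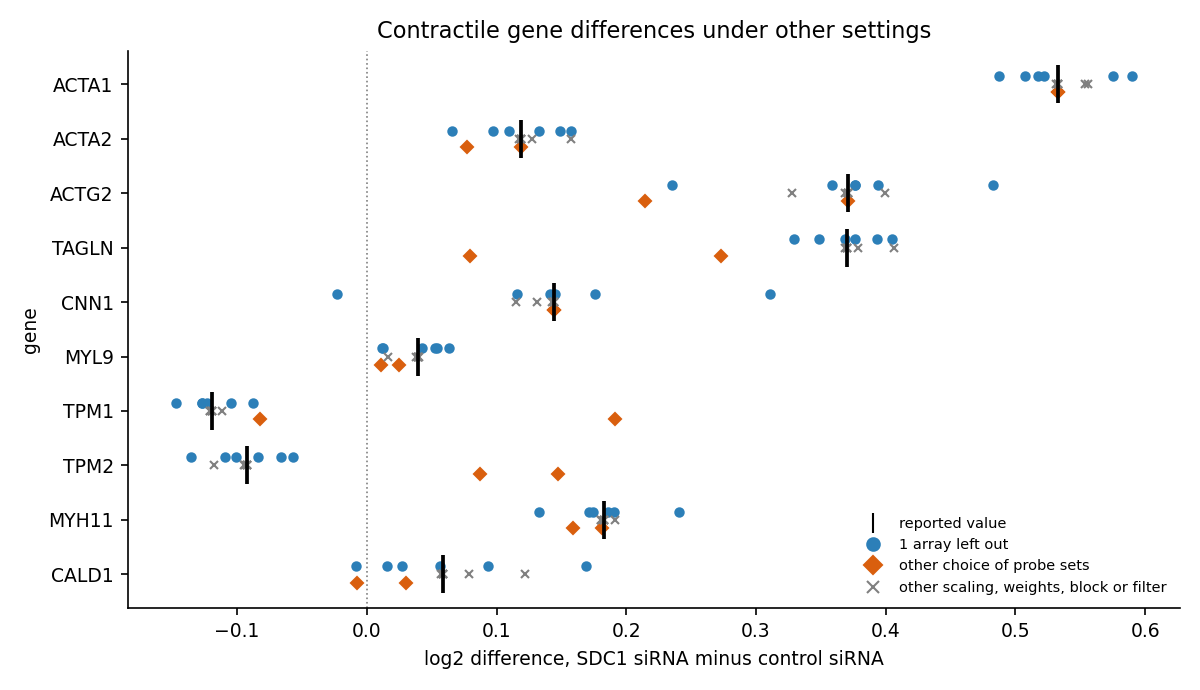
Log2 difference, SDC1 siRNA minus control siRNA (horizontal axis), of each contractile gene under the reported setting (black bar), with 1 array left out (blue), with other choices of probe sets (orange) and with other scaling, weights, block or filter (grey). ACTA1 stays between 0.49 and 0.59, TAGLN reaches down to 0.08 without its _s_at probe sets, and TPM1 and TPM2 change sign with the choice of probe sets.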

How the data were processed

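The members and lists were chosen with earlier results of these data known. The deposited log2 values were made by the authors with RMA, per the submitters' processing notes. All 54675 probe sets had a median of 0 across arrays (tolerance 1e-06), a centring that no label mentions. Levels were thus unknown, and brightness was read from single-precision steps in the values (tolerance 0.1 of a step), which can place a probe set in a wrong class.

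Symbols came from the platform annotation (41091 probe sets with 1 symbol, 1801 with several, 11721 with none; 62 control probe sets left out). The group difference was fitted by limma 3.58.1 under R 4.3.3, using lmFit, eBayes and group as the only term. The fit was tested on simulated data. Adjusted p-values are Benjamini-Hochberg values across all genes, or across all probe sets, with a threshold of 0.05. The rule for naming took all 10 members, SDC1, up to 3 genes of lowest p per list and the 3 patterns nearest to ACTA1 and TAGLN. SRF, MYOCD, ACTB, MYH10, ACTC1 and CDX2 were named after their values were seen. Alternatives tried were a block for the replicate number, leaving out each array, other rules for probe sets, a brightness filter, 2 scalings, array weights, a robust fit and a threshold of 0.01. The number of arrays limits the precision, and an exact permutation test of 3 arrays against 3 cannot go below p = 0.1 (two-sided). No pair of arrays had more than 190 equal values, and scan dates were not used here. Promoters are from RefSeq (GRCh38.p14), and a planned comparison of actin protein sequences was not run. One planned gene list is not reported here.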

Additional observations from a re-analysis of the deposited data

How the results depend on the processing

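Among the 10 contractile genes, 0 passed an adjusted p of 0.05 in any limma fit other than that with array weights, where the count was 1. That gene was ACTA1, chosen for its difference in these same arrays, so the count is no test of it. The same arrays set these weights, 0.471 for control replicate 2 and 1.79 for control replicate 1. Of the 40 probe sets, 0 passed with the replicate block, with array weights or with any array left out. Contractile genes with separate groups numbered 4 or 5 in the settings with all 6 arrays, where 16.1% to 18.1% of the genes in each setting had them. With 1 array left out they numbered 5 to 7, where that share was 23.2% to 29.6%. The median difference of the contractile genes lay between 0.11 and 0.16 with 1 array left out. Genes called over the whole table numbered 5 as reported, 0 with the replicate block, 3 when all probe sets of a gene were averaged, 10 among genes of the brighter classes, 36 with array weights and 0 at an adjusted p of 0.01. With 1 array left out there were 0 to 1, from fewer samples. All genes with separate groups numbered 3294, and 4584 to 5851 with 1 array left out, where fewer arrays separate more easily. SDC1 kept its sign but passed no longer with the replicate block, after a second quantile normalization, or with any 1 array left out (8 settings). Signs turned in 9 places. CNN1 was at -0.023 without control replicate 2 and at 0.31 without control replicate 3. CALD1 was at -0.0080 without control replicate 1, at 0.17 without control replicate 2 and at -0.0079 when all its probe sets were averaged. Averaging all probe sets gave 0.088 for TPM2 and -0.093 for MYL12A. Leaving out _x_at and _s_at probe sets gave 0.15 for TPM2, 0.19 for TPM1, -0.079 for DES and 0.042 for LUM. The cause of these turns was not tested. Same-numbered arrays did not deviate together (correlation over genes -0.0077, -0.26 and -0.11 for replicates 1, 2 and 3), so the numbers were not taken as pairs and the replicate block was only an alternative, with 0 genes called.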
